A study of Homo sapiens with 12 samples.

Results

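The joint action of BITC and ZA on messenger RNA was described in MDA-MB-231, an established human triple-negative breast cancer cell line. Of 27412 genes with counts, 14950 had enough reads to be tested for a departure of the change under both compounds from the sum of the single changes. RNA sequencing covered 12 libraries in 4 groups of 3, each treated for 24 h: 2 µM BITC with 1 µM ZA (BITC+ZA), 2 µM BITC alone, 1 µM ZA alone, and vehicle (DMSO and water). The labels only abbreviate the compounds; BITC is taken here to stand for benzyl isothiocyanate and ZA for zoledronic acid, as the study is known. All groups came from this 1 cell line, and the labels mention dishes in triplicate but no separate cultures or days. The p-values therefore cover only the variation among these libraries, which could be technical.

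Benzyl isothiocyanate, a compound of cruciferous vegetables, reacts with thiol groups, and isothiocyanates are known to release the transcription factor NRF2 from its inhibitor KEAP1. Zoledronic acid, a bisphosphonate used against bone metastasis, blocks farnesyl diphosphate synthase in the mevalonate pathway and so the prenylation of small GTPases. When agents act independently on a transcript, their fold changes multiply and their log2 changes add. The interaction is the log2 change under BITC+ZA minus the changes under BITC alone and under ZA alone. A positive value means a higher level under both compounds than the single changes add up to, and a negative value a lower one.

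The chemokine genes CXCL8 and CXCL1 and the Notch target HES1 are used below as named examples of negative and positive interactions, and their promoters are given here so that the neutrophil-attracting chemokines can be set side by side. The chemokine genes lie on chromosome 4 and are textbook targets of NF-kB and AP-1, while HES1, a transcriptional repressor on chromosome 3, is a textbook target of Notch through RBPJ. Each run holds the 250 bases before and 50 bases after the gene's start on the plus strand, from RefSeq on GRCh38.p14. Capitals mark exact matches to the NF-kB letters GGAATTTCC and the AP-1 letters TGANTCA in the chemokine promoters, and to the RBPJ letters GTGGGAA in HES1, searched on both strands; these motifs do not overlap here.
CXCL8, chr4:73740319-73740618: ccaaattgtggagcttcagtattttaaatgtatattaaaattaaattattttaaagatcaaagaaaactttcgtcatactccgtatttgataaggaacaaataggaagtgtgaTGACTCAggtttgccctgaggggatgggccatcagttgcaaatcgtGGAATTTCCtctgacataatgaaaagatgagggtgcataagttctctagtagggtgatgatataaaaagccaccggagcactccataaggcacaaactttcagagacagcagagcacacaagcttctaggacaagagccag
CXCL1, chr4:73869143-73869442: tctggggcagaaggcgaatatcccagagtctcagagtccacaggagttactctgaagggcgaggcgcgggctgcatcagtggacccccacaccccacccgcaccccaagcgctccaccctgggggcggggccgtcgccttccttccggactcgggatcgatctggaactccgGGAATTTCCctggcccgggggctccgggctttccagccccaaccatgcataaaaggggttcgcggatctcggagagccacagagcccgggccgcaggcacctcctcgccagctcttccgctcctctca
HES1, chr3:194135898-194136197: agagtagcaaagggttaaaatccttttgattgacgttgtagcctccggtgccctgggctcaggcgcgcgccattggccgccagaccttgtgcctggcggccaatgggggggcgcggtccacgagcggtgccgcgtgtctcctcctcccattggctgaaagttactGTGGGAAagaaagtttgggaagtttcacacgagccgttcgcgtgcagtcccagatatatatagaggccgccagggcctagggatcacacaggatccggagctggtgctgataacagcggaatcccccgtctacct
The NF-kB letters began at position -91 in the CXCL8 promoter and at position -78 in the CXCL1 promoter, counted from the start. The AP-1 match of CXCL8 began at position -137, and the CXCL1 window held no match to those letters. The RBPJ match of HES1 began at position -85. Of 35116 promoter windows of the same length, 0.461% held the NF-kB letters, 7.71% the AP-1 letters and 6.25% the RBPJ letters. Among genes with a promoter entry, 193 were called with a negative interaction, 145 with a positive one and 10333 were tested. The NF-kB letters were held by 2 of the negative, 1 of the positive and 47 of the tested genes, so these matches were rare in every set. CXCL8 and CXCL1, shown above, hold these letters and were called negative, so the count of negative genes is not separate from these examples. For the AP-1 letters the counts were 12, 8 and 488 (6.22%, 5.52% and 4.72%). For the RBPJ letters, marked above in HES1, they were 13, 3 and 596 (6.74%, 2.07% and 5.77%), so the positive genes held the lowest share.

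Library totals ranged between 15874857 and 17375664 counts, and the genes tested held 99.9% of all counts. The line's markers VIM, CD44, EGFR, CAV1, AXL, KRT18 and ZEB1 were present, and ESR1 and CDH1 averaged under 1 count per 1000000 counts (CPM) in every group. The marker values in this paragraph are scaled to library totals alone, while the CPM levels of genes given later are also scaled with TMM factors. SPARC, listed as a marker of this line, averaged only 0.994 to 1.24 CPM. EPCAM, expected near 0, averaged 12.9 to 17.8 CPM. Of the markers of other cells, the immune and endothelial ones, LUM and FOXA1 averaged under 1 CPM, and the luminal gene GATA3 averaged 16.95 to 18.8 CPM. ZA replicate 1 stood apart: over 10686 genes its counts differed from those of the other ZA libraries by a chi-square of 15.99 and 17.8 per gene, against 2.32 to 4.11 for the other replicate pairs. Some results are given with and without it, and a result given only with it can depend on it too.

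Most measured genes showed no interaction past the threshold: 425 of 14950 were called at an adjusted p below 0.05 by edgeR's quasi-likelihood test, which is 2.84% of the genes tested. Positive interactions were called for 196 genes (1.31%) and negative ones for 229 (1.53%). An unadjusted p below 0.05 was reached by 2751 genes, or 18.4%. The called interactions were small, with a median of 0.42 for the positive and -0.36 for the negative ones on the log2 scale, and only 24 reached a size of 1. The median over all genes tested was -0.0061. All 425 kept their sign when the same difference was taken on the CPM scale.

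The number of calls moved with the libraries used. Without ZA replicate 1 it was 803, or 5.37% of the genes (503 positive, 3.36%, and 300 negative, 2.01%), without ZA replicate 2 it was 689 and without ZA replicate 3 it was 918. It fell to 94 without BITC replicate 1 and 234 without BITC replicate 3, and was 305 without BITC replicate 2. Leaving out BITC+ZA replicates 1, 2 and 3 in turn gave 233, 145 and 122 calls, and leaving out vehicle replicates 1, 2 and 3 gave 120, 119 and 208. In every one of these 12 fits 68 genes were called, 49 with a positive and 19 with a negative interaction. With an offset for GC content and gene length in each library, 629 genes (4.21%) were called, of which 165 (1.1%) were positive and 464 (3.1%) negative, so the positive share was 26.2% there against 46.1% without it. All 425 kept their sign with that offset, but 105 of the 196 positive and 169 of the 229 negative genes were called there.

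**Figure D1:**
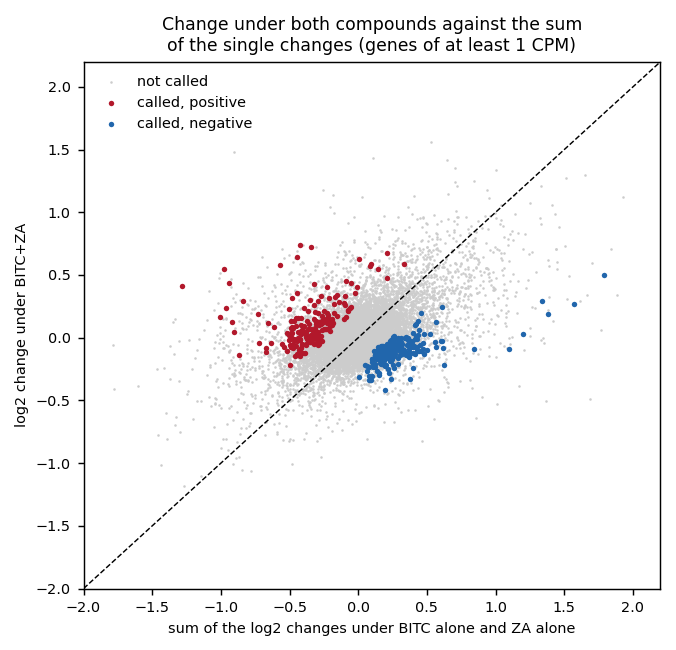
Each point is a gene with a mean of at least 1 CPM; the x axis is the sum of the log2 changes under BITC alone and ZA alone, the y axis the log2 change under BITC+ZA, all against vehicle, and the dashed line marks equal values. Positive interactions (red) lie above the line, mostly where the single changes sum below 0, and negative ones (blue) lie below it, where the sum is mostly above 0.

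The called genes took a simple overall form. Of the 196 genes with a positive interaction, 169 were lower than vehicle under BITC alone and also under ZA alone, with medians of -0.14 under BITC and -0.21 under ZA. Under BITC+ZA their median change against vehicle was 0.08, and 143 were higher than vehicle. Of the 229 genes with a negative interaction, 218 were higher than vehicle under each single compound, with medians of 0.14 under BITC and 0.10 under ZA. Under BITC+ZA 205 were lower than vehicle, with a median of -0.10. The rise under ZA was largest in ZA replicate 1: relative to the 12-library mean, the median of these 229 genes was 0.19 there. It was 0.03 and -0.02 in ZA replicates 2 and 3, and -0.05, -0.04 and -0.01 in vehicle replicates 1, 2 and 3. The directions under each compound follow from the contrast that chose the genes and were not tested.

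Shapes were read from the 3 changes against vehicle, with 0.2 on the log2 scale counted as a change. The most frequent shape, with 178 of 425 genes (107 positive, 71 negative), was a return: a single compound moved the gene by at least 0.2 and the combination left it within 0.2 of vehicle. In 161 genes all 3 changes stayed under 0.2. Another 51 genes (24 positive, 27 negative) moved only under BITC+ZA, and 27 moved under the combination against the sum of single changes of which at least 1 reached 0.2. Damping, a change under both of the same sign as the sum but smaller, was found in 6 genes. Of the called genes 41.9% returned, 37.9% stayed under 0.2, 12% moved only under BITC+ZA, 6.35% moved against the sum and 1.41% were damped. Over all genes tested these shares were 19.4%, 50.6%, 9.31%, 4.54% and 10.1%. NEAT1 and the pseudogene AC110079.1, named after their values were seen, were the 2 genes in which a single compound gave a change of at least 0.2 and the change under both went beyond the sum in the same direction. A change beyond the sum was found in 0.471% of called genes and 6.13% of all genes tested. With 0.1 as the limit 187 genes returned and 43 moved only under both (44% and 10.1% of called genes, 27.9% and 12% of all genes tested). With 0.3 these counts were 71 and 26 (16.7% and 6.12% of called genes, 12% and 6.67% of all genes tested). The shapes come from the values that chose the genes and were not tested.

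**Figure D2:**
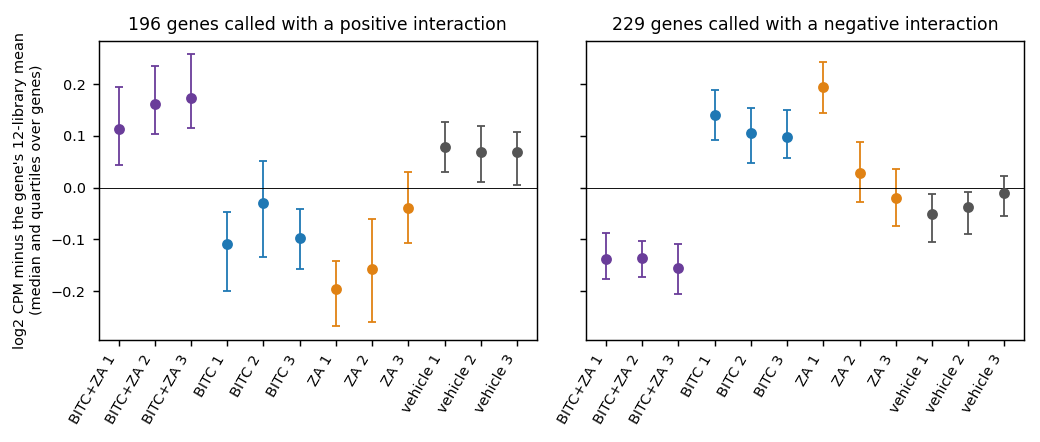
The y axis gives log2 CPM minus the gene's mean over the 12 libraries, as the median (point) and quartiles (bars) over the 196 genes with a positive (left) and the 229 genes with a negative interaction (right), one point per library. The 196 genes sit between 0.11 and 0.17 in the BITC+ZA libraries and between -0.20 and -0.03 in the BITC and ZA libraries, and the 229 genes sit between -0.15 and -0.14 in the BITC+ZA libraries; ZA replicate 1 (0.19) is above the other ZA libraries for the 229 genes.

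For 22 genes a compound had opposite called effects with and without the other. The effect of ZA changed direction in 17 of them (13 with a positive and 4 with a negative interaction), where ZA against vehicle called 1.06% of all genes and BITC+ZA against BITC 14.7%. The effect of BITC changed direction in 8 (6 positive and 2 negative), where BITC against vehicle called 1.78% and BITC+ZA against ZA 6.95%. LAMA3, AHNAK and ZFHX3, a large zinc finger transcription factor, were in both sets. CXCL8 rose by 0.51 under ZA alone, while CXCL8 fell by 0.54 when ZA was added to BITC. These effects are parts of the contrast that chose the genes, and the comparisons share libraries.

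The lowest p-value of all belonged to CXCL8, which encodes interleukin-8, a chemokine that attracts neutrophils. CXCL8 had 24.9, 24.3 and 21.7 CPM in BITC+ZA libraries, 35.9, 33.2 and 34.0 CPM in BITC libraries, 30.8, 27.8 and 24.0 CPM in ZA libraries, and 18.6, 19.2 and 20.2 CPM in vehicle libraries. Every BITC and ZA library lay above every vehicle library, while the BITC+ZA libraries lay below every BITC library, overlapped the ZA range and stayed above vehicle. Its log2 change was 0.29 under BITC+ZA, 0.83 under BITC and 0.51 under ZA, and the interaction was -1.05 ± 0.13 (SE; n = 3 libraries per group; adjusted p = 0.000153, edgeR's quasi-likelihood test). It was called in every fit that left out 1 library, with values between -1.14 and -0.93.

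CXCL1, a chemokine that acts on the same receptor CXCR2, had 3.27, 3.65 and 2.71 CPM in BITC+ZA libraries, 3.80, 5.41 and 4.80 CPM in BITC libraries, 4.98, 4.63 and 5.07 CPM in ZA libraries, and 3.16, 3.28 and 3.02 CPM in vehicle libraries. The BITC+ZA and vehicle ranges overlapped, and all BITC and ZA libraries lay above both. The interaction of CXCL1 was -1.17 ± 0.26 (SE; adjusted p = 0.015, edgeR's quasi-likelihood test), and without BITC+ZA replicate 3 its adjusted p was 0.073. CXCL2 and CXCL3, neighbours of these genes that were added after their values were seen, had interactions of -0.62 ± 0.21 and -1.15 ± 0.43 (SE) at adjusted p = 0.102 and 0.139 by the same edgeR test and did not pass. CXCL2 averaged 6.32 ± 0.53 CPM in BITC+ZA, 7.99 ± 0.81 in BITC, 7.47 ± 0.84 in ZA and 6.14 ± 0.76 in vehicle libraries (SD, n = 3). In the whole list of CXC chemokines and NF-kB feedback genes, CXCL8 and CXCL1 were the 2 of 17 tested members with a negative call, none was positive, and the median interaction was -0.05, near that of all genes. IL6, a cytokine on that list, had an interaction of -0.42 ± 0.14 (SE) at adjusted p = 0.0976 by the edgeR test.

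**Figure D3:**
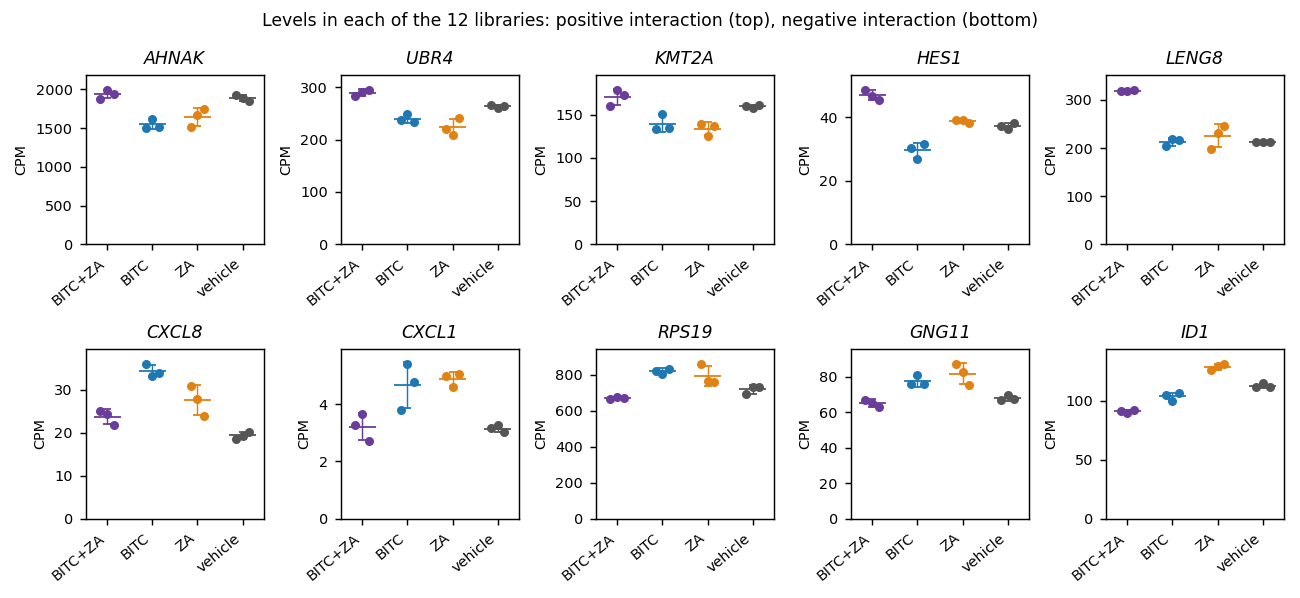
CPM (y axis, from 0) of 10 genes in each of the 12 libraries, with points for libraries, horizontal lines for group means and error bars for the SD of 3 libraries; groups run BITC+ZA, BITC, ZA, vehicle. In the top row the BITC+ZA libraries of LENG8, HES1 and UBR4 lie above all others, and in the bottom row the single-compound libraries of CXCL8, CXCL1, RPS19 and GNG11 lie above vehicle while ID1 is lowest under BITC+ZA.

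Of 39 cytosolic ribosomal protein genes on the list, all tested, 12 were called negative and none positive, where 1.53% of all genes were called negative. The other 27 did not pass; 33 of the 39 had a value below 0 and 6 above it, and the median was -0.19 against -0.0061 over all genes. The called members included RPLP1 and RPLP2, acidic proteins of the ribosomal stalk, and RPL34 of the large subunit; with the GC and length offset RPL34 moved to -0.21, against -0.33 without it, and RPLP2 was not called (adjusted p = 0.102, edgeR). The count lay between 4 without BITC replicate 3 and 20 without ZA replicate 1, and no leave-one-out fit called a member positive. The list's median stayed between -0.21 and -0.16 in every alternative fit.

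RPS19, a protein of the small ribosomal subunit that was not on the list, had 666, 674 and 671 CPM in BITC+ZA libraries, 823, 804 and 834 CPM in BITC libraries, 858, 767 and 756 CPM in ZA libraries, and 691, 732 and 733 CPM in vehicle libraries. The BITC+ZA libraries lay below all 9 others, and the BITC and ZA libraries lay above vehicle. Its interaction was -0.43 ± 0.07 (SE; adjusted p = 0.00121, edgeR's quasi-likelihood test), and with the GC and length offset it was -0.49 at an adjusted p of 0.0631 and did not pass. RPLP1 had 616.7, 634.5 and 633.9 CPM in BITC+ZA libraries, 739.6, 698.5 and 713.4 CPM in BITC libraries, 788.6, 708.8 and 715.7 CPM in ZA libraries, and 621.3, 651.6 and 681.2 CPM in vehicle libraries. For RPLP1 the BITC+ZA range overlapped vehicle and the single-compound libraries lay above both, with an interaction of -0.37 ± 0.07 (SE; adjusted p = 0.00423, edgeR). Ribosomal protein genes have many processed pseudogenes, and no source used here gives the counting rule for shared reads, so these values are uncertain; the pseudogene RPL5P34 was called too, at -1.19. EIF3M, a subunit of the initiation factor eIF3 chosen after its values were seen, had an interaction of -0.41 ± 0.08 (SE, adjusted p = 0.00584, edgeR). It was called in all 12 fits without 1 library. Without ZA replicate 1 the interactions of RPS19, RPLP1, EIF3M and RPL5P34 were nearer 0, at -0.35, -0.30, -0.30 and -0.91, and each was still called.

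In 3 further lists the calls were few, where 1.53% of all genes were called negative, and 2.2% of those under 2 kb. Of 24 proteasome genes, 4 were called negative, among them PSMB1 and PSMB3, subunits of the core particle, at -0.29 and -0.30, and 5 of the 24 lay above 0. With the GC and length offset PSMB1 was at -0.12 and not called (adjusted p = 0.168, edgeR). Between 0 members without BITC+ZA replicate 3 and 8 without ZA replicate 3 were called. Of 27 nuclear genes of the respiratory chain, 3 were called negative (NDUFA4, ATP5MD and UQCRQ, at -0.38, -0.47 and -0.36). Between 0 without BITC replicate 1 and 5 without ZA replicate 3 were called. NDUFA4 was at -0.24 with the offset and at -0.28 without ZA replicate 1, and was still called in both. In the heat shock list 2 of 14 were called negative, HSP90AA1 and DNAJA1, at -0.24 and -0.23, and each was called in 3 of the 12 fits without 1 library, those without a ZA library. With the offset DNAJA1 was at -0.08 and not called, and without ZA replicate 1 HSP90AA1 was at -0.15. SNRPB, a core spliceosomal protein, had an interaction of -0.44 ± 0.08 (SE; adjusted p = 0.00255, edgeR) and was called in all 12 fits without 1 library.

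Signalling genes with a negative interaction included ID1, an inhibitor of basic helix-loop-helix factors and a target of bone morphogenetic proteins. ID1 had 91.0, 89.9 and 92.1 CPM in BITC+ZA libraries, 104.7, 100.2 and 106.4 CPM in BITC libraries, 126.3, 129.7 and 131.1 CPM in ZA libraries, and 111.6, 114.8 and 111.7 CPM in vehicle libraries. The 4 groups did not overlap: ZA libraries were highest, then vehicle, BITC and BITC+ZA. The interaction was -0.38 ± 0.07 (SE; adjusted p = 0.00507, edgeR's quasi-likelihood test). ID1 was the called member among 16 genes of TGF-beta signalling. GNG11, a gamma subunit of heterotrimeric G proteins, averaged 65.3 ± 2.1 CPM in BITC+ZA, 77.5 ± 3.0 in BITC, 81.7 ± 5.9 in ZA and 68.1 ± 1.6 in vehicle libraries (SD, n = 3), with an interaction of -0.51 ± 0.09 (SE; adjusted p = 0.0024, edgeR).

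Among metallothioneins, which bind zinc and copper, MT2A had 405.9, 453.3 and 450.2 CPM in BITC+ZA libraries, 495.8, 490.2 and 498.3 CPM in BITC libraries, 582.0, 573.5 and 535.6 CPM in ZA libraries, and 485.9, 523.5 and 533.7 CPM in vehicle libraries. All BITC+ZA libraries lay below all others. The interaction was -0.31 ± 0.07 (SE; adjusted p = 0.015, edgeR), and the adjusted p lay between 0.0515 and 0.0683 without BITC replicate 1, BITC+ZA replicate 1 or 3, or vehicle replicate 1 or 2. MT1E followed at -0.61 but was called in only 2 of the 12 fits without 1 library, those without ZA replicate 1 or 3; with the GC and length offset it was not called (adjusted p = 0.134, edgeR). These were the 2 called of 7 tested genes of the list.

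On the positive side, genes of very long transcripts stood out. AHNAK, a giant scaffold protein at the plasma membrane, had 1882, 1993 and 1947 CPM in BITC+ZA libraries, 1508, 1623 and 1518 CPM in BITC libraries, 1512, 1670.5 and 1742 CPM in ZA libraries, and 1923, 1894 and 1855 CPM in vehicle libraries. Every BITC and ZA library lay below every vehicle library, and the BITC+ZA and vehicle ranges overlapped. The interaction was 0.53 ± 0.07 (SE; adjusted p = 0.000157, edgeR's quasi-likelihood test), and it was 0.30 with the GC and length offset, where it was still called.

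UBR4, a ubiquitin ligase that recognises destabilising N-terminal residues, had 282.7, 291.2 and 294.8 CPM in BITC+ZA libraries, 237.1, 247.9 and 233.1 CPM in BITC libraries, 220.3, 208.0 and 241.4 CPM in ZA libraries, and 266.2, 260.2 and 263.5 CPM in vehicle libraries. Here the BITC+ZA libraries lay above vehicle, and the BITC and ZA libraries below it. The interaction of UBR4 was 0.51 ± 0.07 (SE; adjusted p = 0.000463, edgeR). The same order held for MDN1, an ATPase of ribosome assembly, which averaged 73.0 ± 2.1 CPM in BITC+ZA, 56.7 ± 2.0 in BITC, 55.6 ± 2.3 in ZA and 65.3 ± 0.6 in vehicle libraries (SD, n = 3; interaction 0.60 ± 0.08 SE, adjusted p = 0.000463, edgeR). DYNC1H1, the heavy chain of cytoplasmic dynein, averaged 1137 ± 29 CPM in BITC+ZA, 993 ± 40 in BITC, 944 ± 66 in ZA and 1104 ± 3 in vehicle libraries, with an interaction of 0.42 ± 0.07 (SE; adjusted p = 0.002, edgeR). All 3 genes were called in each fit without 1 library. With the GC and length offset they were still called, but at 0.26 for UBR4, 0.39 for MDN1 and 0.16 for DYNC1H1.

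The list of chromatin regulators with long transcripts, genes that write, read or remodel histone marks, was drawn up with length in its definition. Of 22 members 13 were called positive and none negative, where 1.31% of all genes and 15.5% of genes of at least 16 kb were called positive. In all, 21 had a value above 0, and the median was 0.37. PRRC2C, USP34 and ZFHX3 had been put on this list from earlier results for ZA on these same libraries; without them 10 of 19 were called, with the median again 0.37. KMT2A, a histone H3 lysine 4 methyltransferase, had 159.7, 178.7 and 173.1 CPM in BITC+ZA libraries, 133.1, 151.2 and 134.9 CPM in BITC libraries, 139.3, 125.5 and 136.9 CPM in ZA libraries, and 159.6, 158.3 and 161.7 CPM in vehicle libraries. All BITC and ZA libraries of KMT2A lay below all vehicle libraries, and the BITC+ZA range overlapped vehicle. The interaction was 0.54 ± 0.08 (SE; adjusted p = 0.000972, edgeR's quasi-likelihood test), and with the GC and length offset it was 0.35 and still called.

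Its relative KMT2C and the acetyltransferase EP300 had interactions of 0.44 ± 0.09 and 0.46 ± 0.09 (SE; adjusted p = 0.01 and 0.00914, edgeR) and were called in all 12 fits without 1 library; with the offset they were at 0.28 and 0.27 and still called. KMT2D, a related methyltransferase, had an interaction of 0.91 ± 0.17 (SE; adjusted p = 0.0181, edgeR). It had 51.4, 58.1 and 80.7 CPM in ZA libraries, a wide spread, and was not called without BITC replicate 1, BITC+ZA replicate 2 or 3, or vehicle replicate 1 (adjusted p 0.052 to 0.065). The list's count lay between 5 without BITC replicate 1 and 17 without ZA replicate 1. With the GC and length offset 5 were called, again all positive, and the median was 0.18. Without PRRC2C, USP34 and ZFHX3 the offset fit called 4 of 19 positive, with a median of 0.13. That fit called 1.1% of all genes positive, and 8.21% of genes of at least 16 kb. The median length of the 22 members was 15295 bases, against 4617.5 over all genes tested.

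**Figure D4:**
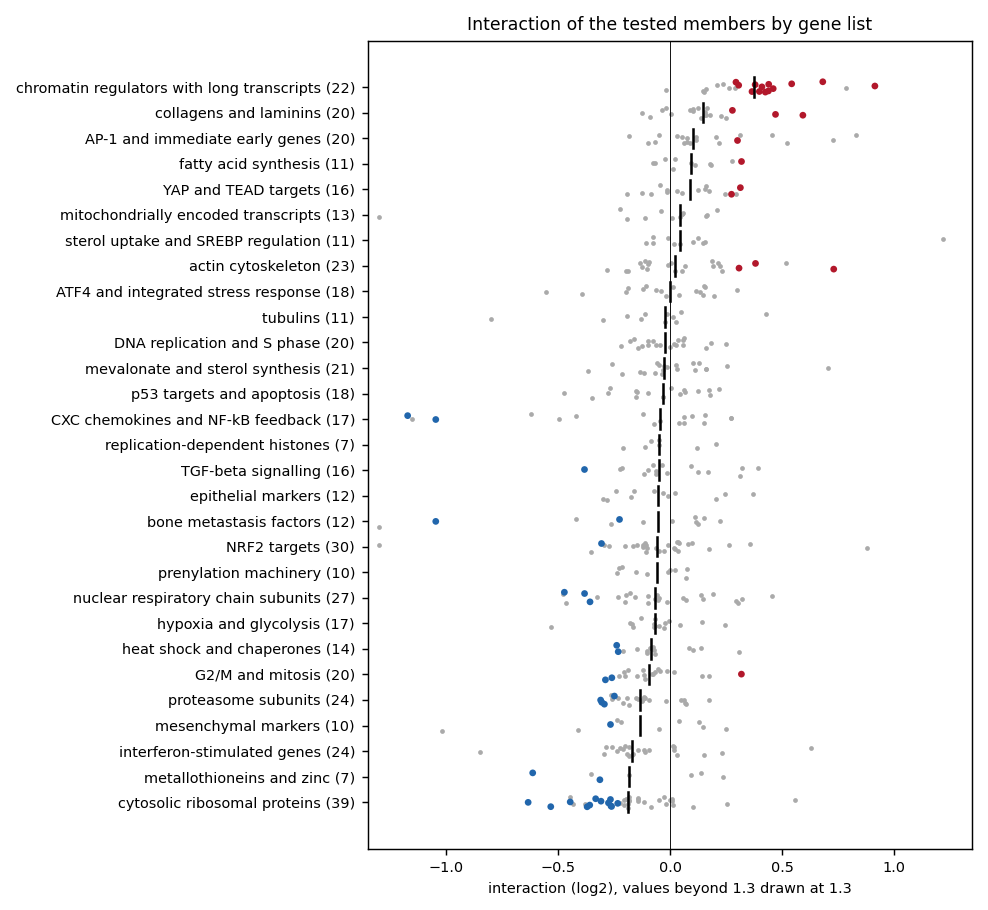
Interaction (x axis, log2) of the tested members of gene lists, ordered by median; points are genes, called positive in red and called negative in blue, bars are medians, values beyond 1.3 are drawn at 1.3, and the number of members tested stands in brackets. The chromatin regulators with long transcripts are at the top with 13 red points of 22 and a median of 0.37, and the ribosomal proteins are at the bottom with 12 blue points of 39 and a median of -0.19.

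Adhesion and cytoskeletal genes with positive interactions were also large. LAMA3, the alpha chain of laminin-332, averaged 56.5 ± 3.6 CPM in BITC+ZA, 47.2 ± 4.3 in BITC, 46.2 ± 1.8 in ZA and 58.3 ± 1.6 in vehicle libraries (SD, n = 3), with an interaction of 0.59 ± 0.10 (SE; adjusted p = 0.0024, edgeR). It was joined by LAMA5 and COL12A1 as the 3 of 20 collagen and laminin genes called positive, at 0.47 and 0.28; LAMA5 was called in 2 and COL12A1 in 5 of the 12 fits without 1 library, and without BITC replicate 1 LAMA3 alone was. With the GC and length offset LAMA3 was at 0.38 and LAMA5 at 0.17, both called, and COL12A1 at 0.16 and not called (adjusted p = 0.0576, edgeR). The collagen and laminin list then held 2 positive calls and 1 negative call. In the actin list 3 of 23 were called positive, among them MICAL3, an oxidase that disassembles actin, at 0.73, and FLNA, which cross-links actin filaments, at 0.31. MICAL3 was called in all 12 fits without 1 library, FLNA in 4. With the offset MICAL3 was at 0.44 and called, and FLNA at 0.09 and not called (adjusted p = 0.203, edgeR). The actin list then held 3 positive and 3 negative calls, with and without ZA replicate 1. Of 16 YAP and TEAD targets 2 were called positive, PTPN14 at 0.31 and AMOTL1 at 0.27, against 7 without ZA replicate 1, 0 without BITC replicate 1 and 0 with the GC and length offset. Over all genes tested, 3.36% were called positive without ZA replicate 1. With the offset 1.1% of all genes were called positive and 3.1% negative.

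Length and GC content separated the called genes by sign. The median gene length, as deposited, was 11232.5 bases for the positive, 3131 for the negative and 4617.5 for all genes tested, and the median GC content of the longest transcript was 53%, 43.8% and 48.2%. Of 329 genes of at least 16 kb, 15.5% were called positive and 1 gene was called negative, with a median interaction of 0.16. Of 2315 genes under 2 kb, 0.259% were called positive and 2.2% negative, with a median of -0.05.

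Library-wide trends moved with these classes. Each library's log2 level relative to the mean of 12 libraries was ranked against gene length over all genes, and this correlation was -0.03 to 0.03 in BITC+ZA, -0.05 to 0.10 in BITC, -0.24 to -0.08 in ZA and 0.09 to 0.17 in vehicle libraries. With GC content it was 0.22 to 0.34 in BITC+ZA, -0.43 to -0.14 in BITC and -0.21 to -0.01 in vehicle libraries, but -0.38 in ZA replicate 1 and 0.41 and 0.43 in the other ZA libraries. These correlations are across genes, which are not independent replicates. With the offset, the 329 longest genes held 27 positive and 22 negative calls with a median interaction of 0.00027. The offset takes each library's trend with GC content and length out of the values, so a median near 0 follows from it. The cause of the trends was not tested.

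**Figure D5:**
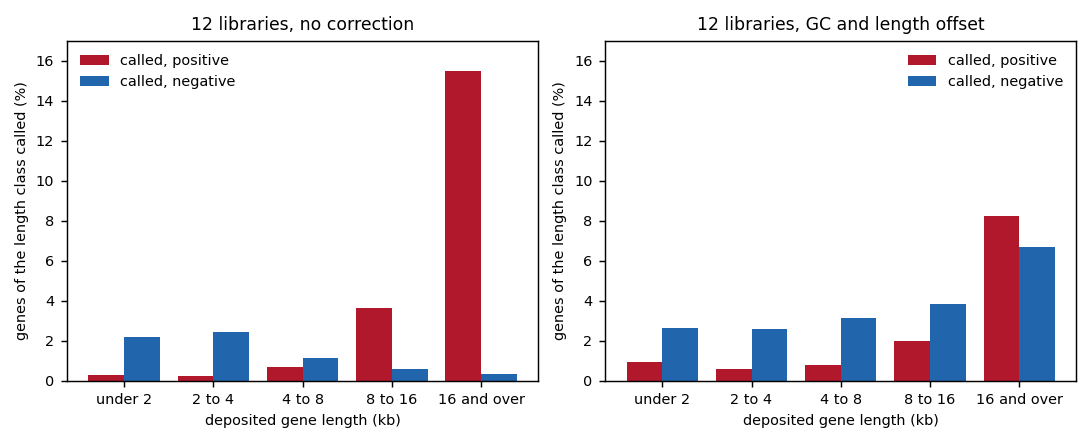
Share of genes called with a positive (red) or negative (blue) interaction (y axis, percent) in 5 classes of deposited gene length (x axis, kb), without a correction (left) and with the GC and length offset (right). In the class of 16 kb and over 15.5% are positive on the left, against 8.21% on the right, where 6.69% are negative.

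Positive interactions were also called for genes outside the longest class. HES1, chosen after its values were seen, has a deposited length of 2062 bases and had 48.6, 46.7 and 45.5 CPM in BITC+ZA libraries, 30.4, 26.9 and 31.4 CPM in BITC libraries, 39.2, 39.2 and 38.1 CPM in ZA libraries, and 37.1, 36.3 and 38.3 CPM in vehicle libraries. BITC libraries were lowest and BITC+ZA libraries highest without overlap, and ZA libraries overlapped vehicle. HES1 thus fell under BITC alone (-0.33) and rose when BITC was added to ZA (0.27), both called by the edgeR test. The interaction was 0.61 ± 0.10 (SE; adjusted p = 0.0024, edgeR's quasi-likelihood test), and with the GC and length offset it was 0.66 and still called.

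LENG8, a nuclear protein gene of 6469 bases, had 317.7, 318.1 and 320.7 CPM in BITC+ZA libraries, 203.9, 218.7 and 217.7 CPM in BITC libraries, 198.7, 232.2 and 246.0 CPM in ZA libraries, and 212.0, 212.4 and 213.0 CPM in vehicle libraries. The BITC+ZA libraries lay above all 9 others, while the BITC and ZA ranges enclosed vehicle. Its change under both was 0.59 and its interaction 0.49 ± 0.08 (SE, adjusted p = 0.0024, edgeR), or 0.35 with the GC and length offset. MUC4, a large membrane mucin whose deposited length of 21325 bases puts it in the longest class, averaged 16.3 ± 0.8 CPM in BITC+ZA, 9.18 ± 0.52 in BITC, 8.43 ± 1.47 in ZA and 9.91 ± 0.75 in vehicle libraries (SD, n = 3), an interaction of 1.06 ± 0.18 (SE; adjusted p = 0.0024, edgeR), or 0.77 with the GC and length offset. SLC6A6, the taurine transporter gene of 8254 bases, reached a change of 0.2 only under both compounds (0.36). It changed by 0.12 under BITC and -0.15 under ZA. All its BITC libraries lay above vehicle and all its ZA libraries below. The interaction of SLC6A6 was 0.39 ± 0.08 (SE, adjusted p = 0.00856, edgeR), or 0.28 with the GC and length offset. This gene was named after its values were seen.

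Nuclear noncoding RNAs were among the positive genes. NEAT1, the scaffold of paraspeckles, had 362.9, 356.9 and 378.7 CPM in BITC+ZA libraries, 239.9, 241.7 and 253.7 CPM in BITC libraries, 281.6, 328.2 and 302.4 CPM in ZA libraries, and 240.0, 250.99 and 238.7 CPM in vehicle libraries. BITC libraries overlapped vehicle, ZA libraries lay above them and BITC+ZA libraries above all. Its interaction of 0.26 ± 0.07 (SE) was near the threshold (adjusted p = 0.0497, edgeR), was called in 4 of 12 fits without 1 library (those without a ZA library or BITC replicate 3), and was 0.10 and not called with the GC and length offset. MALAT1, a marker RNA of nuclear speckles, averaged 207 ± 17 CPM in BITC+ZA, 115 ± 14 in BITC, 98.9 ± 21 in ZA and 124 ± 18 in vehicle libraries (SD, n = 3). Its interaction of 1.17 ± 0.24 (SE; adjusted p = 0.0447, edgeR) was called in 2 of those 12 fits, without ZA replicate 2 or 3.

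Of 20 mitosis genes tested, 16 had an interaction below 0 and 4 above it, with a median of -0.095 against -0.0061 over all genes. CCNB1 and CDK1, the cyclin and kinase that drive entry into mitosis, were called negative at -0.29 and -0.26, and MKI67, the proliferation antigen Ki-67, was called positive at 0.32. MKI67 had 662.2, 725.8 and 723.4 CPM in BITC+ZA libraries, 644.4, 719.8 and 679.3 CPM in BITC libraries, 639.5, 528.6 and 576.5 CPM in ZA libraries, and 699.3, 698.0 and 708.2 CPM in vehicle libraries, so only the ZA libraries lay below vehicle without overlap. The MKI67 gene has a deposited length of 12807 bases. Its interaction was 0.17 and not called with the GC and length offset, but 0.42 without ZA replicate 1 and 0.24 with the offset and without that library, both called. With the offset CCNB1 was at -0.15 and called, and CDK1 at -0.10 and not called. Without ZA replicate 1 CCNB1 was at -0.19 and called. CCNB1, CDK1 and MKI67 were the 3 of 20 mitosis genes called, where 1.53% of all genes were called negative and 1.31% positive. None was called without BITC replicate 1. With the GC and length offset 2 members of the list were called negative and 0 positive. EGR1, an immediate early transcription factor, was the called member of 20 AP-1 and immediate early genes, at 0.30 ± 0.07 (SE; adjusted p = 0.026, edgeR), and was not called without BITC replicate 1 or 2, BITC+ZA replicate 3 or any of the vehicle libraries. FOSB, a subunit of AP-1, averaged 9.34 ± 0.93 CPM in BITC+ZA, 6.12 ± 1.02 in BITC, 3.92 ± 0.50 in ZA and 4.26 ± 0.20 in vehicle libraries (SD, n = 3), and its interaction of 0.73 ± 0.23 (SE) did not pass (adjusted p = 0.0809, edgeR).

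Of 30 NRF2 targets, the genes that isothiocyanates are known to induce, 1 was called negative and 0 positive, where 1.53% of all genes were called negative. Without ZA replicate 1 the negative count was 3, where 2.01% of all genes were called negative. With the GC and length offset it was 4, where 3.1% were. With the offset and without ZA replicate 1 it was 5, where 436 of 14950 genes were called negative. Limma voom with sample weights called 4 negative, where it called 443 of 14950 genes negative. The member called in the fit of 12 libraries without the offset was TXN (thioredoxin), at -0.31 ± 0.07 (SE, adjusted p = 0.0201, edgeR). TXN lost its call without BITC replicate 1, any BITC+ZA library or any vehicle library. With the offset TXN was at -0.16 and called. The list's median change was 0.41 under BITC+ZA, 0.41 under BITC and 0.02 under ZA, and its median interaction was -0.06. NQO1, a quinone reductase and standard NRF2 reporter, had 419.3, 405.2 and 404.4 CPM in BITC+ZA libraries, 434.4, 438.5 and 434.4 CPM in BITC libraries, 258.0, 257.4 and 249.9 CPM in ZA libraries, and 249.2, 242.3 and 258.0 CPM in vehicle libraries. BITC+ZA libraries lay below BITC libraries, and both groups lay far above the ZA and vehicle libraries. The interaction of NQO1 was -0.12 ± 0.06 (SE; adjusted p = 0.295, edgeR), with a 95% interval of -0.24 to 0.005.

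FTL, the ferritin light chain, had an interaction of -0.17 ± 0.05 (SE; adjusted p = 0.0966, edgeR), GCLM, of glutathione synthesis, -0.15 ± 0.07 (SE; adjusted p = 0.259), and SLC7A11, the cystine transporter, 0.10 ± 0.08 (SE; adjusted p = 0.549). None of these passed, nor did HMOX1, heme oxygenase 1, at 0.36 ± 0.19 (SE; adjusted p = 0.328, edgeR).

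FDPS, the enzyme that zoledronic acid inhibits, had an interaction of 0.10 ± 0.09 (SE; adjusted p = 0.615, edgeR).

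Several lists had no call by edgeR's quasi-likelihood test. Of 21 mevalonate and sterol synthesis genes 3 reached an unadjusted p below 0.05, of 11 genes of sterol uptake 1 did and of 10 prenylation genes 0 did, with 0 calls by DESeq2 or by limma voom with sample weights in these 3 lists. Of 24 interferon-stimulated genes 5 reached it, of 20 S phase genes 5 and of 7 histone genes 0, also with 0 calls by DESeq2 or voom. The other such lists held 18 genes of the ATF4 stress response (2 at an unadjusted p below 0.05), 12 epithelial markers (2), 17 hypoxia genes (2), 18 p53 targets (3) and 11 tubulins (2), with 0 DESeq2 calls save 1 tubulin, and with 1, 1, 1, 1 and 2 voom calls. With the GC and length offset, calls in these lists were 1 mevalonate gene, 1 interferon-stimulated gene, 1 S phase gene, 3 of the ATF4 response, 2 epithelial markers, 1 hypoxia gene and 2 tubulins, and 0 in the other lists named here. Without ZA replicate 1, edgeR called 1 gene of the ATF4 response, 2 epithelial markers and 1 tubulin. In the remaining lists with calls, the acetyl-CoA carboxylase ACACA was positive among 11 fatty acid synthesis genes (0.32), VIM was negative among 10 mesenchymal markers (-0.27), and CXCL8 and the Wnt inhibitor DKK1 (-0.23) were negative among 12 bone metastasis factors. Of the 12 fits without 1 library, 8 called ACACA, 5 VIM and 2 DKK1; none of these genes was called without BITC replicate 1. With the GC and length offset ACACA was at 0.155 and DKK1 at -0.09, and neither was called.

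Mitochondrially encoded transcripts illustrate the weight of ZA replicate 1. None of 13 was called in the edgeR test on 12 libraries, and 2 reached an unadjusted p below 0.05. DESeq2 called 0 and voom with sample weights 1 positive and 1 negative. Without ZA replicate 1 edgeR called 7 positive and 1 negative. That fit called 3.36% of all genes positive and 2.01% negative, against 1.31% and 1.53% with all 12 libraries. The mitochondrially encoded transcripts took 4.73 to 4.88% of counts in BITC+ZA libraries, 3.78 to 4.04% in BITC libraries and 3.48 to 3.6% in vehicle libraries. In ZA libraries the share was 4.95% in replicate 1 and 3.88 and 3.92% in the others. In the fit with all 12 libraries the median change of the list against vehicle was 0.49 under BITC+ZA, 0.19 under BITC and 0.27 under ZA.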

How the data were processed

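RNA from 12 dishes of MDA-MB-231 cells was sequenced, 3 libraries per group. Per the submitters' processing notes, the tools were HISAT2 and DESeq2 1.20.0 and the build GRCh38. The counter, the annotation and the strand setting are not stated by any source used. The raw counts per gene and library were taken as deposited in 6 tables of the authors' comparisons and joined to 27412 genes with 0 conflicting values; 4593 values missing from a table were entered as 0. The authors' deposited FPKM values served only as an alternative.

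The interaction (BITC+ZA minus BITC minus ZA plus vehicle, log2) was tested with edgeR 4.0.16 (robust quasi-likelihood F test, two-sided, TMM, filterByExpr, 1 model of 4 groups, 8 residual degrees of freedom, Benjamini-Hochberg over 14950 genes, threshold 0.05) in R 4.3.3. The filter removed 12462 genes, whose median highest count was 3. Levels are CPM scaled with TMM factors, except for the cell type markers, which are scaled to library totals alone. Standard errors come from the fit. Alternatives were other size factors and filters, DESeq2 1.42.0, limma 3.58.1 (voom with sample weights, and log2(FPKM + 1) and log2(FPKM + 0.1)), a replicate block, a GC and length offset per library (splines with 5 degrees of freedom), and leaving out each library. On simulated counts for 14950 genes, the interaction test recovered 18%, 48%, 62% and 82% of genes changed 1.25, 1.5, 2 and 3 times, and 8.70% of its calls were false. That false share is more than the threshold of 0.05 aims at. The simulated counts held no outlying library and no trend with GC content or length, as the real libraries do. These rates therefore need not hold for the 425 calls.

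Named genes were those called with a mean of at least 1 CPM that had the largest interaction (12 per sign) or the lowest p (6 per sign), up to 10 called in every fit without 1 library, the 3 lowest p-values of each of 30 lists, 20 fixed genes, and the 6 largest per sign without ZA replicate 1. KMT2C, KMT2D, HES1, NEAT1, CXCL2, CXCL3, SLC6A6, EIF3M and AC110079.1 were added after their values were seen. The genes and lists were chosen with earlier results of these data known. Of 555 listed symbols 539 matched and 522 were tested. Promoters came from RefSeq. Some listed genes and 1 list are not reported here.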

Additional observations from a re-analysis of the deposited data

Results flagged for a closer look

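The effect of BITC differed with and without ZA in 425 genes by the edgeR test of the interaction itself, the calls described above; leaving out 1 library gave between 94 and 918.

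The effect of ZA was called in opposite directions with and without BITC in 17 genes, among them KMT2A, UBR4 and CXCL8. This count was 96 without ZA replicate 1, 50 without ZA replicate 3 and 1 without ZA replicate 2. It was 3, 9 and 7 without BITC replicates 1, 2 and 3, and 7, 5 and 6 without BITC+ZA replicates 1, 2 and 3. Without vehicle replicate 1 or 2 it was 0, and without vehicle replicate 3 it was 3.

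The effect of BITC was called in opposite directions with and without ZA in 8 genes, among them HES1, RPS19 and EIF3M. This count was 77, 13 and 29 without ZA replicates 1, 2 and 3, and 2, 7 and 3 without BITC replicates 1, 2 and 3. It was 4, 1 and 5 without BITC+ZA replicates 1, 2 and 3, and 2 without any 1 of the vehicle libraries.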

How the results depend on the processing

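The number of interaction calls (425; 196 positive, 229 negative) became 436 with DESeq2 size factors, 371 without the robust option, 529 with the DESeq2 Wald test and 451 with a filter of 5 CPM. It became 706 (422 negative) without a filter and 815 (372 positive, 443 negative) with limma voom and sample weights. It was 14 (5 positive, 9 negative) on log2(FPKM + 1) and also on log2(FPKM + 0.1). The GC and length offset gave 464 negative calls, and 436 without ZA replicate 1. Leaving out 1 library gave 94 to 918 calls, 53 to 503 positive and 30 to 525 negative. In the same fits BITC against vehicle gave 102 to 1508 calls, ZA against vehicle 1 to 2555, BITC+ZA against vehicle 283 to 2133, BITC+ZA against BITC 487 to 4019, BITC+ZA against ZA 342 to 1882 and ZA against BITC 385 to 4533. Opposite effects of ZA were called in 0 to 96 genes and those of BITC in 1 to 77. The causes were not tested.

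With 0.1 as the limit of a change, 5 called genes were enhanced beyond the sum, 24 damped, 163 turned against the sum and 3 without change. Over all genes tested the shares of these shapes were 13.4%, 19.2%, 13% and 14.5%. With 0.3, 26 called genes moved only under both, 1 was enhanced, 2 damped, 71 returned, 10 turned and 315 were without change. The shares over all genes tested were then 6.67%, 3.28%, 6.2%, 12%, 2.22% and 69.7%. Replicate numbers did not pair the samples: of 18 pairs with the same number 0 correlated above 0.1. The replicate block gave 563 calls, and 440 negative ones with the offset. With 3 libraries per group, 18% of the smallest simulated interactions were recovered, so small ones could be missed.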
